A study of Mus musculus with 18 samples.

Results

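The BCL2 family sets the threshold at which mitochondria release cytochrome c and a cell enters apoptosis. The 10 genes described here were taken by symbol from a table of 55491 rows. They comprise 3 survival genes (*Bcl2*, *Bcl2l1* and *Mcl1*), 2 effector genes (*Bax* and *Bak1*) and 5 genes for BH3-only proteins (*Bbc3*, *Pmaip1*, *Bcl2l11*, *Bid* and *Bad*). All 10 passed the filter on low counts.

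Mouse tail tendon fibroblasts (TFs) were kept for 4 days in 20% or in 1% O2, and their polyadenylated RNA was sequenced in 6 groups of 3 replicates, 18 libraries in all. The cKO TFs came from Hif1a fl/fl mice with ScxCre, in which the tenogenic gene *Scx* drives Cre, so that recombination depends on *Scx* having been active in each cell. Ctrl TFs are labelled wild-type, and the study's methods describe them as Cre-negative TFs of the same floxed colony. The third arm, Ctrl gesicles, was Ctrl TFs given Cre in vitro by gesicles, which are vesicles that carry a protein into cells. All mice had a mixed C57BL6J/129S1 background, were male and female and were 4 to 6 months old. The comparisons ask how O2 level and loss of *Hif1a*, which encodes the O2-regulated subunit of HIF-1, alter survival and death genes.

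Survival proteins hold back the effectors BAX and BAK1, which otherwise form pores in the outer mitochondrial membrane. BH3-only proteins relieve that hold or activate the effectors directly, and each is turned on by a different stress. Fibroblasts can adjust the balance by transcription, by protein stability and by phosphorylation, and RNA-seq reads only the first of these.

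Library totals ranged from 6857558 counts (cKO 1% O2 replicate 1) to 51806453 counts. *Hif1a* was not lower in the libraries labelled cKO. Its level in CPM, the count scaled to a common library total, was 334.5, 339.5 and 370.6 in Ctrl 20% O2, and 488.2, 364.6 and 405.8 in Ctrl 1% O2. It was 405.3, 294.1 and 431.2 in cKO 20% O2, and 427.4, 398.3 and 503.5 in cKO 1% O2. In the gesicle groups it was 347.1, 340.9 and 397.3 in 20% O2, and 393.4, 369.6 and 387.1 in 1% O2. A count over the whole gene does not separate a deleted exon from the rest, so it does not check the deletion. By qPCR, after a longer culture, the study reported reduced *Hif1a* in tail TFs from cKO mice. The Cre row held counts in 5 of the 6 libraries labelled cKO (15 counts in all) and in none of the other 12. *Xist* marks female cells. As mean ± SD of 3 libraries, it was at 14.6 ± 12.7 CPM in Ctrl 20% O2 and 11.9 ± 10.5 CPM in Ctrl 1% O2. In cKO TFs it was at 7.60 ± 13.2 and 5.54 ± 9.60 CPM, and with gesicles at 11.5 ± 9.97 and 9.25 ± 8.22 CPM. Each group held a library at 0. In cKO TFs the highest library, at 22.8 CPM in 20% O2 and 16.6 CPM in 1% O2, carried nearly all *Xist* of its group. In Ctrl TFs and with gesicles the highest library, at 15.7 to 23.5 CPM, did not. By this marker the mix of sexes differed between cKO and Ctrl TFs. All 12 tendon fibroblast markers exceeded 1 CPM on average, including *Scx* and *Tnmd*. *Cd3e* was at 0 and *Ptprc* at no more than 0.162 CPM. Summed endothelial markers reached at most 0.885 CPM and summed keratinocyte markers at most 0.181 CPM. Summed leukocyte markers, mostly *Lyz2*, ranged from 10.6 to 25.4 CPM and chondrocyte markers from 24.2 to 51.2 CPM, and skeletal muscle markers, mostly *Acta1*, from 9.32 to 41.8 CPM. Across O2 with gesicles, *Kdr* of the endothelial list was called lower and *Rgs5* of the mural list higher, and no other marker was called across O2 within an arm.

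The members spanned a wide range of levels. To compare genes, CPM was divided by the kb of annotated exon. In Ctrl 20% O2, *Bax* was highest at 128.6 ± 6.29 CPM per kb (SD, n = 3, as for all group values below). *Mcl1*, a short-lived survival protein, followed at 72.4 ± 2.43 CPM per kb, and *Bcl2l1*, which encodes BCL-XL, at 28.5 ± 1.35 CPM per kb. These 3 genes held the first 3 ranks in all 6 groups without overlap between neighbours. *Bid*, which is cleaved by caspase-8, stood at 17.4 ± 0.825 CPM per kb. *Bad*, which responds to growth factor withdrawal, stood at 14.4 ± 0.550 CPM per kb and overlapped with *Pmaip1*, which encodes NOXA, at 13.9 ± 2.56 CPM per kb. *Bbc3*, which encodes the p53-induced protein PUMA, stood at 9.34 ± 0.906 CPM per kb, and *Bak1* at 1.49 ± 0.328 CPM per kb. *Bcl2*, at 0.462 ± 0.0546 CPM per kb, and *Bcl2l11*, which encodes BIM, at 0.446 ± 0.1002 CPM per kb, were lowest and overlapped.

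Within each class, 1 or 2 genes carried most of the level per kb. *Mcl1* made up between 71.3% (cKO 20% O2) and 76.3% (cKO 1% O2) of the survival level, and *Bcl2* at most 0.784%. *Bax* made up 98.7% to 99.3% of the effector level. The 5 BH3-only genes were more evenly spread, and *Pmaip1* lost share in 1% O2. It made up 25.0% ± 2.66 of the BH3-only level in Ctrl 20% O2 and 12.3% ± 1.7 in Ctrl 1% O2. The shares were 30.5% ± 7.05 and 16.3% ± 4.93 in cKO TFs, and 27.7% ± 1.86 and 14.9% ± 2.75 with gesicles. *Bad* had the largest BH3-only share in 1% O2 in all 3 arms, at 40.2% ± 2.7 in Ctrl TFs.

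**Figure D1:**
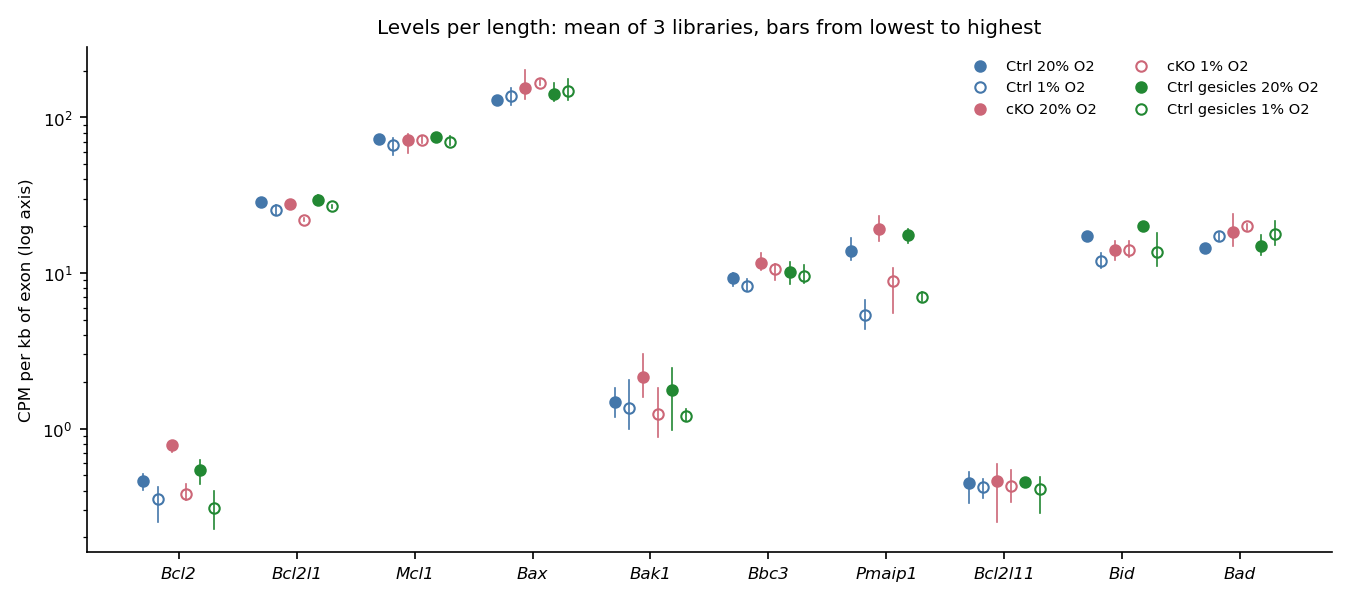
Level of each member in CPM per kb of annotated exon, on a log axis, with 1 point per group for the mean of 3 libraries and a bar from the lowest to the highest library. *Bax*, *Mcl1* and *Bcl2l1* lie at the top in all 6 groups, and *Pmaip1* is at 13.9 CPM per kb in Ctrl 20% O2 and 5.38 in Ctrl 1% O2.

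The first comparison was 1% against 20% O2. A gene was called at a Benjamini-Hochberg adjusted p under 0.05 in edgeR's quasi-likelihood test over all genes and a fold change of at least 1.5. Under this rule, 1 member of 10 was called in Ctrl TFs, 2 in cKO TFs and 1 in gesicle-treated TFs, all lower in 1% O2. Over all genes tested, 1.88% were called in Ctrl TFs, 2.1% in cKO TFs and 2.41% in gesicle-treated TFs. The median log2 fold change of the 10 members was −0.15, −0.10 and −0.14 in these arms, beside medians over all genes of 0, −0.03 and −0.02.

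*Pmaip1* (ENSMUSG00000024521) fell in 1% O2 in all 3 arms. NOXA binds MCL1 and promotes its degradation. In Ctrl TFs, *Pmaip1* was at 35.1, 33.0 and 46.0 CPM in 20% O2 and at 11.98, 13.7 and 18.4 CPM in 1% O2. In cKO TFs it was at 63.3, 43.9 and 50.6 CPM in 20% O2 and at 28.2, 29.5 and 15.1 CPM in 1% O2. In gesicle-treated TFs it was at 48.5, 42.4 and 52.1 CPM in 20% O2 and at 20.7, 18.01 and 19.2 CPM in 1% O2. All 9 libraries in 1% O2 lay below all 9 in 20% O2. The log2 fold change was −1.36 (SE 0.257) in Ctrl TFs, with an adjusted p of 0.0173. It was −1.12 (SE 0.257, adjusted p = 0.0453) in cKO TFs and −1.31 (SE 0.231, adjusted p = 0.00602) in gesicle-treated TFs. The interaction of genotype and O2 for *Pmaip1* was 0.25 (SE 0.358, adjusted p = 1).

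The call of *Pmaip1* in Ctrl TFs was lost without Ctrl 20% O2 replicate 1 (adjusted p = 0.0531) or replicate 3 (0.0783), and without Ctrl 1% O2 replicate 1 (0.0834) or replicate 2 (0.0575). In cKO TFs it was lost without cKO 20% O2 replicate 1 (0.133) or replicate 3 (0.12) and without cKO 1% O2 replicate 1 (0.0974), replicate 2 (0.0804) or replicate 3 (0.0954). It was also lost in cKO TFs with counts thinned to the smallest library (−1.19, adjusted p = 0.0535) or with only the 2 groups compared in the fit (−1.10, adjusted p = 0.138). A block for replicate number shared by Ctrl and cKO TFs also lost it (−1.11, adjusted p = 0.0888), and a block within each arm kept it. In gesicle-treated TFs it was kept without each library, at adjusted p of 0.0165 to 0.0354.

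*Bcl2* (ENSMUSG00000057329, chr1:106538178-106714274, minus strand, GRCm38), the founding survival gene of the family, fell in cKO TFs. It was at 7.49, 6.44 and 7.50 CPM in cKO 20% O2 and at 3.27, 4.06 and 3.18 CPM in cKO 1% O2, with no overlap. The log2 fold change was −1.01 (SE 0.230, adjusted p = 0.0439). In Ctrl TFs *Bcl2* was at 3.70, 4.69 and 4.29 CPM in 20% O2 and at 2.32, 3.604 and 3.84 CPM in 1% O2, and the groups overlapped. That log2 fold change was −0.37 (SE 0.226, adjusted p = 0.463), and it was −0.18 without Ctrl 1% O2 replicate 1, the lowest library, and −0.23 with offsets for GC content and length. In gesicle-treated TFs *Bcl2* was at 4.01, 5.05 and 5.76 CPM in 20% O2 and at 2.06, 3.62 and 2.86 CPM in 1% O2. These groups did not overlap, but the log2 fold change of −0.80 (SE 0.236) did not pass (adjusted p = 0.0835). In this arm 5 of 12 alternatives called *Bcl2* lower. In edgeR these were the replicate block (adjusted p = 0.0468) and *Xist* as covariate (0.0372). The others were voom with sample weights (0.0261), DESeq2 (0.0175) and DESeq2 with the block (0.00441). Of the 6 fits with a library left out, 0 called it.

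The *Bcl2* response in cKO TFs was not shown to differ from that in Ctrl TFs, since the interaction was −0.64 (SE 0.321, adjusted p = 1). The *Bcl2* call in cKO TFs rested on between 23 and 331 counts per library. It was lost without cKO 20% O2 replicate 1 (adjusted p = 0.118) or replicate 3 (0.138), and without cKO 1% O2 replicate 1 (0.111), replicate 2 (0.0964) or replicate 3 (0.114). The *Bcl2* call was also lost with counts thinned to the smallest library (−1.04, adjusted p = 0.0525) and with no filter on low counts (−1.01, adjusted p = 0.0589). It was lost as well with only the 2 groups compared in the fit (−0.998, adjusted p = 0.128). A block for replicate number shared by Ctrl and cKO TFs lost it too (−1.04, adjusted p = 0.0574), and a block within each arm kept it.

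The O2 effect averaged over the 3 arms was added after the data were seen and treats the 18 libraries as separate. *Pmaip1* fell by 1.27 on the log2 scale (SE 0.134, adjusted p = 9.35e-06) and *Bcl2* by 0.73 (SE 0.137, adjusted p = 0.00142), and both calls held without each library in turn. In this contrast 10.5% of all genes were called. *Bcl2l1* (log2 fold change −0.21, SE 0.051, adjusted p = 0.00717) and *Bid* (−0.36, SE 0.095, adjusted p = 0.0123) passed the p threshold without reaching a fold change of 1.5. When the fit had offsets for length and GC content, *Bcl2* was at −0.58 (adjusted p = 0.00336), just short of the fold change minimum.

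The other BH3-only genes were not called. *Bid* (chr6:120891930-120916853, minus strand) was at 58.4, 62.4 and 64.1 CPM in Ctrl 20% O2 and at 38.2, 40.8 and 47.9 CPM in Ctrl 1% O2. Those groups did not overlap, at a log2 fold change of −0.54 (SE 0.143, adjusted p = 0.0815). With gesicles it was at 72.0, 69.3 and 72.3 CPM in 20% O2 and at 39.6, 41.9 and 63.9 CPM in 1% O2, at −0.56 (SE 0.165, adjusted p = 0.0838). Without gesicle 1% O2 replicate 3, the highest of that group, *Bid* was called at −0.83 (adjusted p = 0.00907). In cKO TFs *Bid* was at 43.3, 57.1 and 48.6 CPM in 20% O2 and at 44.8, 57.2 and 48.0 CPM in 1% O2. These groups overlapped almost wholly, at a log2 fold change of 0.02 (SE 0.143, adjusted p = 0.959). The interaction of genotype and O2 for *Bid* was 0.55 (SE 0.202), with an unadjusted p of 0.0174 and an adjusted p of 1 in edgeR's test. *Bid* overlaps *Bcl2l13* on the opposite strand, *Bad* overlaps *Gpr137* and *Bak1* overlaps *Ggnbp1*. Whether counting used strand is not given in the sources used here, so these 3 values are less certain.

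*Bad*, *Bbc3* and *Bcl2l11* had small fold changes with O2. The log2 fold change of *Bad* was 0.27 (SE 0.164) in Ctrl TFs, 0.13 (SE 0.164) in cKO TFs and 0.26 (SE 0.174) with gesicles. That of *Bbc3* was −0.17, −0.13 and −0.09 (SE 0.153, 0.154 and 0.160). *Bcl2l11*, at 23 to 191 counts per library, was at −0.07, −0.08 and −0.16, with an SE of 0.300 to 0.329.

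The effectors and the abundant survival genes were not called with O2 either. *Bax* was at 0.10 (SE 0.164), 0.10 (SE 0.164) and 0.05 (SE 0.168) on the log2 scale in Ctrl, cKO and gesicle-treated TFs. *Mcl1* was at −0.11 (SE 0.129), 0.01 (SE 0.130) and −0.09 (SE 0.115). *Bcl2l1* was lower in 1% O2 without overlap in each arm, at −0.16 (SE 0.1), −0.33 (SE 0.1, adjusted p = 0.109) and −0.13 (SE 0.088). *Bak1*, at 15 to 285 counts per library, was at −0.13 (SE 0.374), −0.73 (SE 0.380) and −0.55 (SE 0.376), with overlapping groups in each arm.

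**Figure D2:**
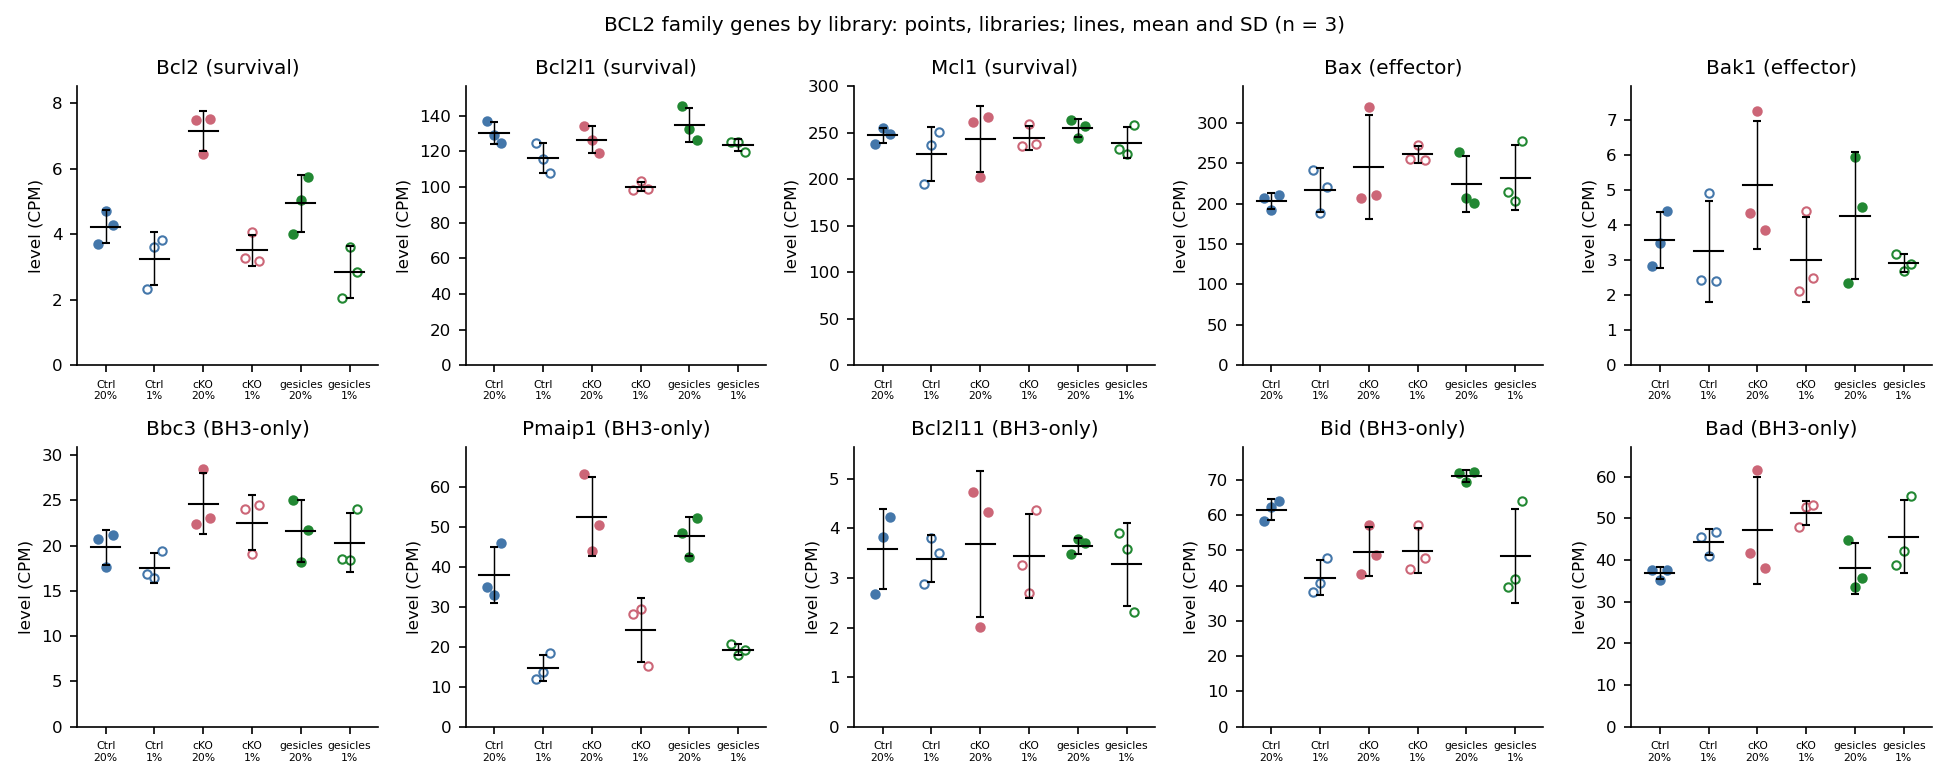
Level of each member in CPM by library, with filled points for 20% O2 and open points for 1% O2, and lines for the mean and SD of 3 libraries. *Pmaip1* in 1% O2 lies below 20% O2 in every arm, *Bcl2* is highest in cKO 20% O2 at 7.14 CPM, and *Bax*, *Bak1*, *Bbc3* and *Bad* each have cKO 20% O2 replicate 2 as their highest library of that group.

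**Figure D3:**
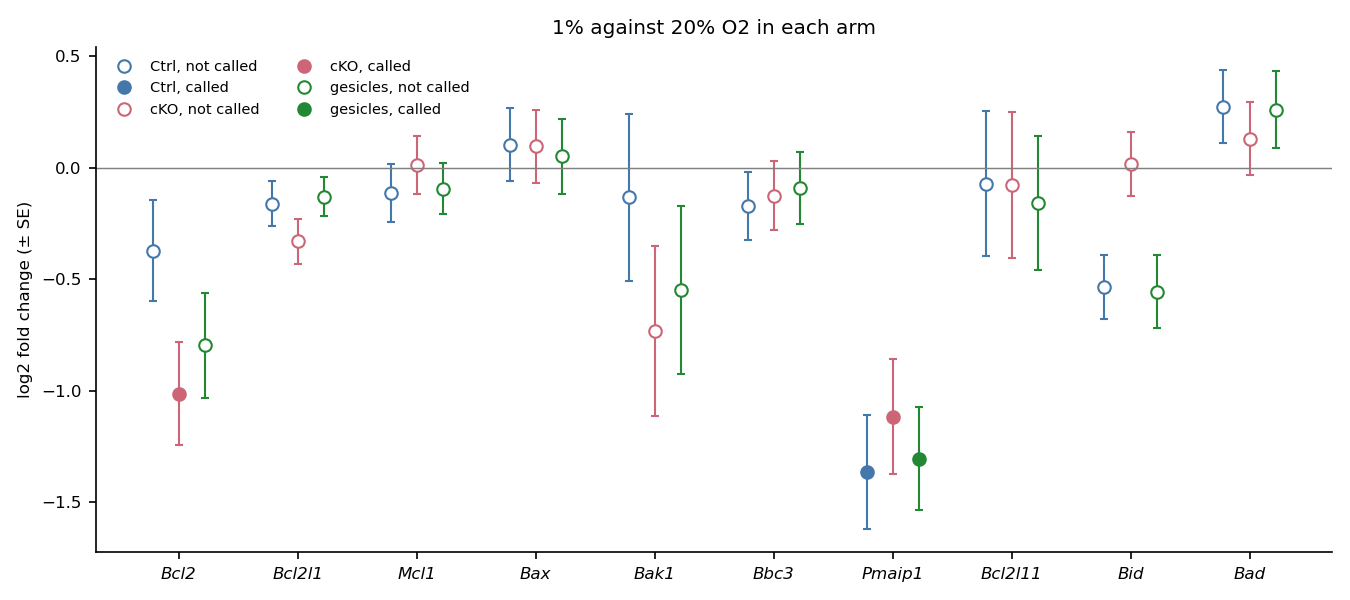
Log2 fold change of each member in 1% against 20% O2 with its SE, in Ctrl, cKO and gesicle-treated TFs, with filled points for called genes. The 4 filled points are *Pmaip1* in the 3 arms, at −1.36, −1.12 and −1.31, and *Bcl2* in cKO TFs, at −1.01.

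The second comparison was cKO against Ctrl TFs. By edgeR's test no member was called in 20% O2, where 0.347% of all genes were called, in 1% O2 (0.0379%), or averaged over both O2 levels (3.78%). At an unadjusted p under 0.05 and the same fold change minimum, 1 member passed in each, namely *Bcl2* in 20% O2 and *Pmaip1* in the other 2. Over all genes, 8.53%, 9.77% and 11.2% passed in this way. DESeq2 and limma voom with sample weights each called 1 member in 20% O2, where they called 3.03% and 10.0% of all genes tested. Neither called a member in 1% O2 (2.17% and 8.04% of all genes) or averaged (8.59% and 10.6%). The median log2 fold change of the members was 0.29 in 20% O2, 0.16 in 1% O2 and 0.25 averaged, beside medians over all genes of 0.03, 0 and 0.02. The averaged genotype contrast treats the 12 libraries as separate, and 599 of 15850 genes were called in it. With the libraries of each replicate number summed within a genotype, 25 of 16715 genes were called. With *Xist* as covariate, 327 of 15850 genes were called.

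*Bcl2* was higher in all 3 cKO libraries than in all 3 Ctrl libraries in 20% O2, at 7.14 ± 0.610 against 4.23 ± 0.5001 CPM. The log2 fold change was 0.75 (SE 0.224, adjusted p = 0.19). It was called with DESeq2 (0.74, adjusted p = 0.0395), with limma voom and sample weights (0.87, adjusted p = 0.00318) and with GC and length offsets in edgeR (1.02, adjusted p = 0.0449). The other 9 of 12 alternatives, DESeq2 with a replicate block among them, did not call it, and neither did any of the 6 fits with a library left out (adjusted p = 0.128 to 0.625). In 1% O2 *Bcl2* was at 3.50 ± 0.485 against 3.25 ± 0.817 CPM, with overlap, at 0.11 (SE 0.230, adjusted p = 0.816). Averaged over O2 it was at 0.43 (SE 0.160, adjusted p = 0.11), and at 0.69 with the offsets (adjusted p = 0.0213).

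*Pmaip1* was at 0.46 (SE 0.251, adjusted p = 0.397) in 20% O2, at 0.71 (SE 0.257, adjusted p = 0.237) in 1% O2 and at 0.59 (SE 0.180, adjusted p = 0.0722) averaged. It was called in the averaged contrast without cKO 1% O2 replicate 3 (0.72, adjusted p = 0.039) and in a fit of all 18 libraries (0.59, adjusted p = 0.0436). *Bbc3* was at 0.33 (SE 0.109, adjusted p = 0.0818) averaged over O2, from 0.31 in 20% O2 and 0.35 in 1% O2. *Bid* was lower in all cKO libraries in 20% O2, at −0.31 (SE 0.142, adjusted p = 0.344), and not in 1% O2, at 0.24 (SE 0.143, adjusted p = 0.389).

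*Bax* and *Bad* were at 0.27 (SE 0.116, adjusted p = 0.154) and 0.28 (SE 0.116, adjusted p = 0.139) averaged over O2. Without cKO 20% O2 replicate 2 these values were 0.149 (adjusted p = 0.244) and 0.158 (adjusted p = 0.192). *Bax* was at 206.4, 319.0 and 210.3 CPM in cKO 20% O2, against 206.7, 191.4 and 210.0 CPM in Ctrl 20% O2. *Bad* was at 41.6, 61.8 and 38.0 CPM against 37.7, 35.2 and 37.7 CPM. This replicate 2, the high library for both genes, also had the highest mitochondrial share of counts, 1.02% against 0.346% to 0.754% in the other 17. The transcripts of *Bax* and *Bad* have 59.0% and 58.6% GC, and those of *Bbc3* 67.1%. With GC and length offsets the averaged values were 0.15 (adjusted p = 0.182) for *Bax* and 0.27 (adjusted p = 0.0875) for *Bad*. That of *Bbc3* was 0.38 (adjusted p = 0.0707). The part of GC content in these values was not tested.

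*Mcl1* was at −0.03 (SE 0.129) in 20% O2 and 0.10 (SE 0.130) in 1% O2, and *Bcl2l11* at 0.03 (SE 0.323) and 0.03 (SE 0.330). *Bcl2l1* was at −0.05 (SE 0.1) and −0.22 (SE 0.1, adjusted p = 0.298), the latter with all cKO libraries lower. *Bak1* was at 0.52 (SE 0.372) and −0.07 (SE 0.381), with overlap at both O2 levels. Summed mural markers were lower in all cKO libraries, at 25.3 to 37.4 CPM against 43.3 to 92.6 CPM in Ctrl TFs, and summed Schwann markers were at 1.43 to 2.37 CPM against 0.469 to 1.55 CPM. Of the 12 tendon fibroblast markers, 7 had positive and 5 negative values averaged over O2, with a median of 0.28. *Dcn* and *Lum*, which encode tendon matrix proteoglycans, were called higher in cKO TFs (2.27, adjusted p = 0.00117, and 3.47, adjusted p = 0.002). *Col1a1* was not called, at 6333 ± 1721 CPM in Ctrl against 2867 ± 1254 CPM in cKO TFs in 20% O2. In 1% O2 it was at 3982 ± 2003 against 1869 ± 1046 CPM. *Myh11*, *Rgs5* and *Acta1* were called lower averaged over O2 (−1.39, −0.77 and −0.91, adjusted p = 0.0115, 0.0132 and 0.0154). These tests of markers treat the 12 libraries as separate. The part of these markers in the genotype values was not tested. Fewer cells of a type and less RNA per cell cannot be told apart in such bulk libraries.

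**Figure D4:**
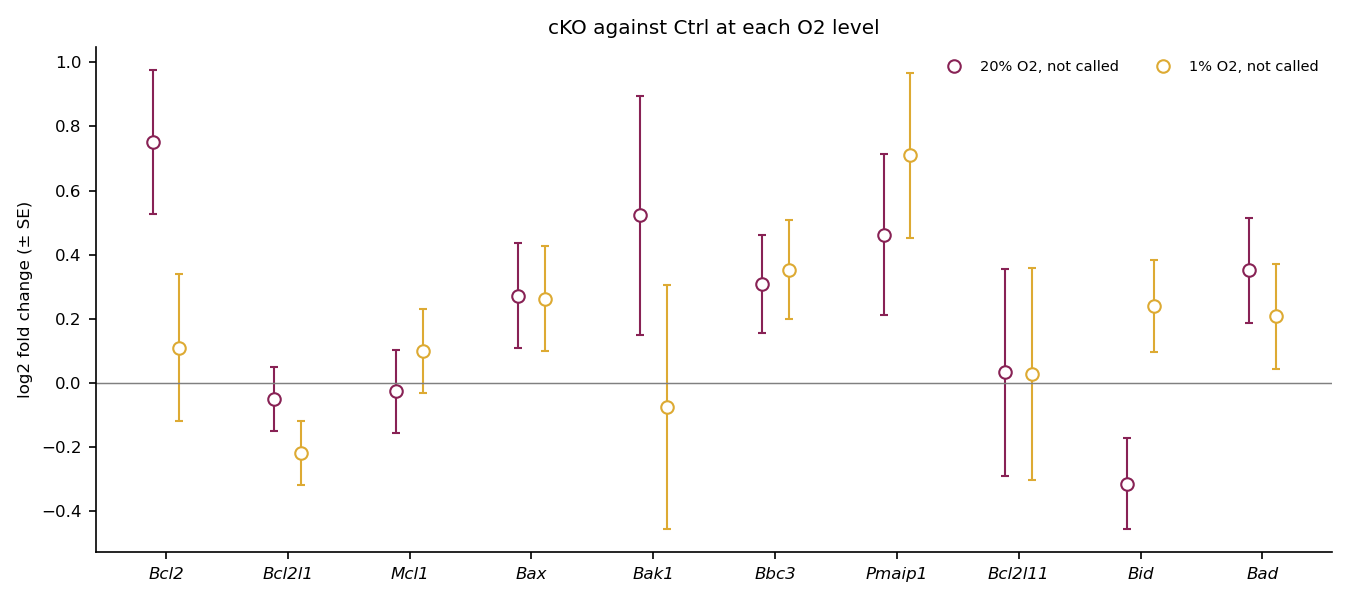
Log2 fold change of each member in cKO against Ctrl TFs with its SE, in 20% and in 1% O2. All points are open because no member was called, and the largest values are *Bcl2* in 20% O2, at 0.75, and *Pmaip1* in 1% O2, at 0.71.

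No member was called for the interaction of genotype and O2, for which 0% of all genes were called, and none passed at an unadjusted p under 0.05 with the fold change minimum (1.84% of all genes) or with DESeq2 or voom. The third comparison, Ctrl gesicles against Ctrl TFs, gave no called member by edgeR in 20% O2 (0.0247% of all genes) or in 1% O2 (0%), and none for its interaction with O2 (0%). No member passed at an unadjusted p under 0.05 with the fold change minimum, as 2.41%, 1.45% and 1.24% of all genes did in these contrasts, and DESeq2 and voom called no member. The largest values were *Pmaip1* at 0.33 (SE 0.227) in 20% O2 and 0.39 (SE 0.230) in 1% O2. All 10 members had positive values in 20% O2, with a median of 0.13 beside 0.01 over all genes, and 7 of 10 in 1% O2. Ctrl and gesicle libraries of the same replicate number deviated together, so the O2 responses of these arms may not be independent.

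The balance of survival and death genes was described per library as the mean log2 CPM of the survival genes minus that of a death class. These are differences of logs with no test, and their absolute size depends on gene length, so only differences between groups are compared. Survival minus BH3-only was 1.18 ± 0.141 in Ctrl 20% O2 and 1.33 ± 0.096 in Ctrl 1% O2. It was 1.26 ± 0.088 in cKO 20% O2 and 1.04 ± 0.096 in cKO 1% O2, and the 3 cKO 1% O2 libraries lay below the cKO 20% O2 libraries and below the Ctrl 1% O2 libraries. With gesicles it was 1.14 ± 0.119 in 20% O2 and 1.18 ± 0.153 in 1% O2. The gesicle libraries in 1% O2, at 1.07 to 1.35, overlapped with those of cKO TFs in 1% O2, at 0.969 to 1.15.

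The O2 difference in cKO TFs depended on how genes were weighted, since *Bcl2* and *Bcl2l11*, with low levels, weigh as much as abundant genes in a mean of logs. When levels per kb were summed first, so that *Mcl1* and *Bcl2l1* dominated the survival class, the change of cKO TFs from 20% to 1% O2 went from −0.22 to 0.15. Without *Bcl2*, *Bak1* and *Bcl2l11*, the 3 lowest members, a choice made after the data were seen, it was 0.12. The 3 cKO 1% O2 libraries lay below the 3 Ctrl 1% O2 libraries under both alternatives. They were at 0.765 to 0.82 against 1.02 to 1.22 with summed levels, and at 2.13 to 2.30 against 2.46 to 2.74 without the 3 genes. The gesicle 1% O2 libraries overlapped with the cKO 1% O2 libraries under both, at 0.806 to 1.148 and 2.294 to 2.622. Without the 3 genes, survival minus BH3-only was higher in 1% O2 by 0.31 in Ctrl TFs and by 0.32 with gesicles. It was lower in cKO than in Ctrl TFs by 0.23 in 20% O2 and 0.42 in 1% O2.

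Survival minus effectors was 0.94 ± 0.169 and 0.76 ± 0.227 in Ctrl TFs in 20% and 1% O2, 0.80 ± 0.529 and 0.68 ± 0.201 in cKO TFs, and 0.89 ± 0.227 and 0.74 ± 0.224 with gesicles. All these groups overlapped within each arm and between genotypes. Without the 3 lowest members the cKO 1% O2 libraries, at −0.745 to −0.729, all lay below the Ctrl 1% O2 libraries, at −0.633 to −0.187, and the difference of means went from −0.08 to −0.32. The lowest library was cKO 20% O2 replicate 2, at 0.19, where *Bax* and *Bak1* were high. *Bcl2* minus *Bax* was −5.57 ± 0.226 in Ctrl 20% O2, −6.06 ± 0.534 in Ctrl 1% O2, −5.06 ± 0.480 in cKO 20% O2 and −6.21 ± 0.134 in cKO 1% O2. It was −5.49 ± 0.473 and −6.34 ± 0.481 with gesicles. The cKO libraries in 1% O2 were all below those in 20% O2, by 1.14 on average. The groups of the other 2 arms overlapped, but there too each library in 1% O2 was below the 20% O2 library of its replicate number, with differences of −0.89, −0.35 and −0.23 in Ctrl TFs and −0.64, −0.45 and −1.47 with gesicles. Those of cKO TFs were −1.49, −0.43 and −1.50.

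**Figure D5:**
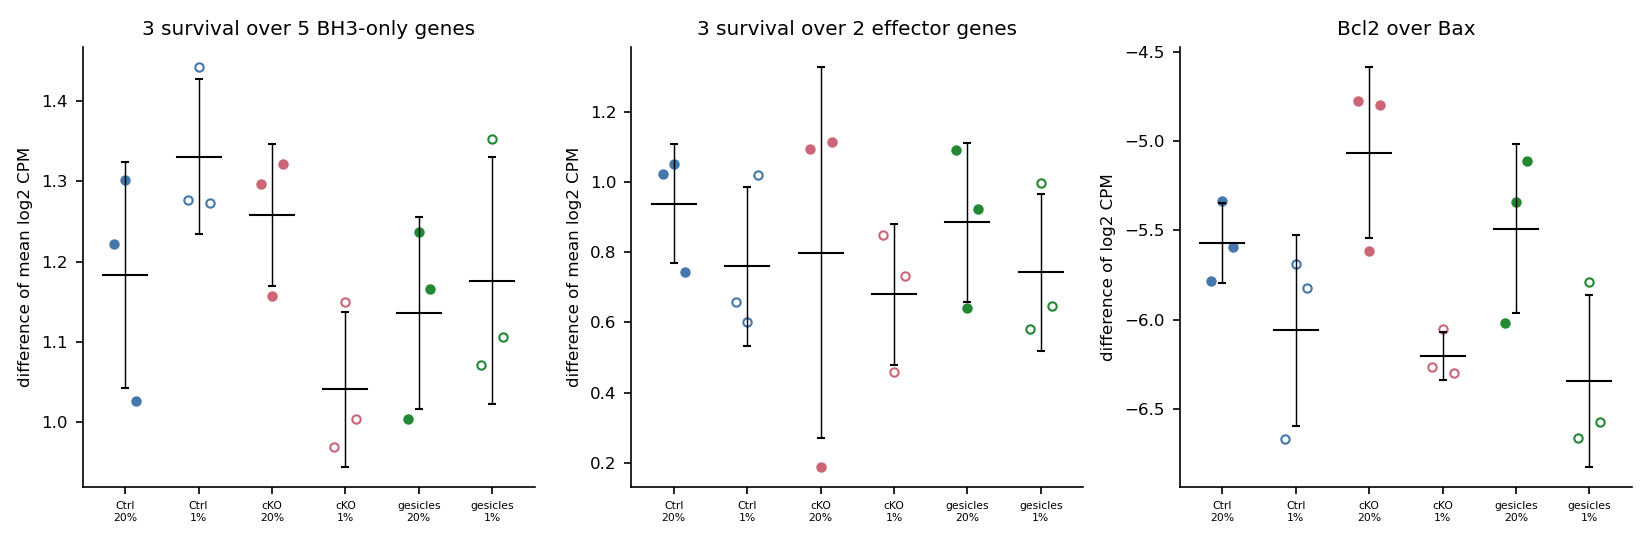
Balance of survival and death genes by library as differences of log2 CPM, with points for libraries and lines for the mean and SD of 3. In the first panel cKO 1% O2 has the lowest mean, at 1.04. In the third panel *Bcl2* relative to *Bax* has its highest mean in cKO 20% O2, at −5.06.

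Outside the 10 members, *Bnip3* was the family gene with the largest O2 response. BNIP3 is a BH3-like protein of the outer mitochondrial membrane that serves mitophagy, and its gene is a textbook HIF-1 target. It was at 75.8, 76.2 and 87.7 CPM in Ctrl 20% O2 and at 407.7, 356.4 and 396.9 CPM in Ctrl 1% O2. In cKO TFs it was at 74.7, 108.4 and 72.0 CPM in 20% O2 and at 549.8, 356.8 and 340.9 CPM in 1% O2. With gesicles it was at 78.2, 61.9 and 72.1 CPM in 20% O2 and at 233.0, 287.1 and 297.8 CPM in 1% O2. No group in 1% O2 overlapped with one in 20% O2. *Bnip3* rose by 2.28 (SE 0.208, adjusted p = 0.000169) in Ctrl TFs, 2.30 (SE 0.208, adjusted p = 0.000245) in cKO TFs and 1.95 (SE 0.191, adjusted p = 5.01e-05) with gesicles, on the log2 scale.

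The promoters of *Bcl2* and *Bnip3* are shown because the O2 responses of these genes pointed in opposite directions. They are the 250 bases before the RefSeq start site (GRCm38.p6), 5′ to 3′ on the gene's strand, with the core of the hypoxia response element (ACGTG or GCGTG on either strand) in capitals. The *Bcl2* window is chr1:106714291-106714540 and the *Bnip3* window chr7:138909507-138909756, both on the minus strand.
Bcl2: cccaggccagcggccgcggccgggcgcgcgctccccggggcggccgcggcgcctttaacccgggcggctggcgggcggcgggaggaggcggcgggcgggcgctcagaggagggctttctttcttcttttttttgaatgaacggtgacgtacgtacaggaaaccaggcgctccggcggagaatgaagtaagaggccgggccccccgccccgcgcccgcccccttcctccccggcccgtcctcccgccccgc
Bnip3: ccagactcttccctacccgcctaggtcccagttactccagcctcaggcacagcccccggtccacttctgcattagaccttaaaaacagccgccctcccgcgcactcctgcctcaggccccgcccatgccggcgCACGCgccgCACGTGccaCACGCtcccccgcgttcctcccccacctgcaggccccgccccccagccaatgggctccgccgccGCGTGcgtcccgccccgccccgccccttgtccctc
The *Bcl2* window held 0 cores. The *Bnip3* window held 5, beginning 117, 108, 107, 99 and 35 bases before the start, of which those at 108 and 107 are both strands of 1 palindrome. Of 27025 genes with a window, 41.5% held at least 1 core. RefSeq windows were matched for 9 members, all but *Pmaip1*, and 5 of these held a core in at least 1 window (*Bad*, *Bax*, *Bbc3*, *Bcl2l1* and *Bcl2l11*). A match of letters is a description and says nothing of binding.

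Other genes of the pathway were listed and counted. Of 15 other family genes, 7 passed the filter, and *Bnip3* was the 1 called with O2 in each arm, with medians of the 7 of 0.40, 0.03 and 0.04 in Ctrl, cKO and gesicle-treated TFs. In the mitochondrial death pathway downstream of BAX and BAK1 (cytochrome c, APAF1, caspases and their inhibitors), 0 of 16 genes were called in any of the 3 arms by edgeR, with medians of −0.02, −0.16 and −0.12. At an unadjusted p with the fold change minimum, 0, 1 and 1 passed, where 9.44%, 11.6% and 9.41% of all genes did. For p53 and its targets 0 of 15 were called (1, 2 and 2 at an unadjusted p), for the death receptor pathway 0 of 9 tested (0, 1 and 0), and for transcription factors upstream of BH3-only genes 0 of 8 (0, 0 and 0). The medians in the 3 arms were −0.08, −0.11 and −0.08 for the p53 list, −0.03, −0.08 and −0.09 for the death receptor list, and 0.09, 0.16 and 0.18 for the upstream factors. In cKO against Ctrl TFs none of these 5 lists had a called gene at either O2 level or averaged, nor a gene past an unadjusted p with the fold change minimum. Over all genes, 0.347% were called in 20% O2, 0.0379% in 1% O2 and 3.78% averaged. At an unadjusted p, 8.53%, 9.77% and 11.2% of all genes passed.

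Over the 18 libraries, the genes whose centred log2 CPM followed *Pmaip1* most closely were *Emp1*, *Insig1* and *Hmgb3*, at root mean square differences of 0.336, 0.345 and 0.346 beside a spread of *Pmaip1* itself of 0.728. For *Bcl2* they were *Gprc5a* (0.267), *Fam107b* (0.271) and *Bhlhe41* (0.271), beside its own 0.497. These values describe likeness across libraries that share the O2 levels.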

How the data were processed

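Reads were trimmed, mapped to GRCm38 with STAR 2.7.8a and assigned to genes with RSEM 1.3.3 by the authors, who deposited the expected counts rounded to whole numbers and not normalized. Strandedness is not given in the sources used here. Samples were grouped by genotype, O2 level and gesicles as labelled.

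After filterByExpr, edgeR 4.0.16 with TMM factors fitted a coefficient for each group and gave quasi-likelihood F tests. Genotype contrasts and O2 in Ctrl and cKO TFs used a fit of those 12 libraries (15850 genes), and gesicle and averaged O2 contrasts used all 18 (16174 genes). P-values were adjusted over all genes of a fit. The size of each log2 fold change over the root of its F statistic gave the SE. CPM uses TMM-scaled totals, and log2 CPM a prior count of 2. A floor of 3 counts equals 0.0579 to 0.437 CPM per library and covers counting error only. Exon length, GC content and positions came from GENCODE M21 of GRCm38. R 4.3.3, limma 3.58.1, DESeq2 1.42.0 and Python 3.11.15 were used. The edgeR step was tested on simulated data.

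The labels do not say whether a shared replicate number means a shared mouse. Every correlation of same-number libraries was over 0.1 for Ctrl TFs across O2 (0.271 to 0.458). The same held for gesicles against Ctrl in 20% (0.346 to 0.462) and 1% O2 (0.193 to 0.284), and for no other comparison. In cKO TFs across O2 the correlations were 0.092 to 0.368. Their mean was 0.185, beside −0.087 for different numbers. With the additive replicate block, which shares numbers between arms, *Pmaip1* in Ctrl TFs stayed called (−1.36, adjusted p = 0.0391). The calls of *Pmaip1* and *Bcl2* in cKO TFs across O2 were lost with that block. Both cKO calls were kept with the block within arm. P-values of the main fits rest on a spread estimated over all groups of a fit, with each library taken as separate. They do not give the spread between mice.

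Alternatives were DESeq2 with and without the block, the block in edgeR (additive or within arm), RLE size factors, other filters, other sets of libraries, thinned counts, voom weights, *Xist* as covariate, GC and length offsets, no fold change minimum, unadjusted p and each library left out. Members and lists were chosen with earlier results of these data known. All 10 members are named, with called genes of the other lists and the 3 genes nearest to *Bcl2* and to any member called in 2 or more comparisons.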

Additional observations from a re-analysis of the deposited data

Results flagged for a closer look

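Counts appeared in 2 transgene rows outside the gene comparisons, each absent from the Ctrl libraries, which held 0 counts in both. The eGFP row held 14 counts over the libraries labelled cKO, in 5 of 6 libraries and at most 5 in one. The tdTomato row held 8 counts over the gesicle libraries, in 5 of 6 and at most 3 in one. No group of 3 libraries was large enough for a test of single outlying values.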

How the results depend on the processing

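The number of members called changed as follows. In cKO TFs across O2 it was 2, and 0 with the additive replicate block, with thinned counts or with only the groups compared. Of all genes, the main fit called 333 of 15850, and these settings 222 of 15850, 279 of 12823 and 84 of 15312. The number of members was 1 with no filter on low counts (511 of 28539 genes), and 0 to 2 with each library left out. In Ctrl TFs across O2 it was 1, and 0 to 1 with a library left out. With gesicles across O2 it was 1, and 2 with an unadjusted p, the replicate block, *Xist* as covariate, DESeq2 or DESeq2 with the block. It was 3 with voom weights, and 1 to 2 with a library left out. Of all genes, the main fit called 2.41%, an unadjusted p 9.41%, DESeq2 4.93% and voom weights 4.61%. The replicate block called 449 of 16174 genes, *Xist* as covariate 486 of 16174 and DESeq2 with the block 840 of 17082. Averaged over 3 arms the number of members was 2 (1697 of 16174 genes). It was 4 without a fold change minimum (3980 of 16174) and 1 with GC and length offsets (1655 of 16153). For cKO against Ctrl TFs it was 0, and 1 in 20% O2 with an unadjusted p, the offsets, voom weights or DESeq2, 1 in 1% O2 with an unadjusted p, and 1 averaged over O2 with an unadjusted p, the offsets or all 18 libraries, and 0 to 1 with a library left out. Of all genes, the offsets called 130 of 15831 in 20% O2 and 540 of 15831 averaged, and all 18 libraries 629 of 16174 averaged. The shares for the other rules are given with the second comparison. No called member changed direction. *Bcl2* in cKO against Ctrl TFs in 1% O2, not called, turned from 0.11 to −0.085 without Ctrl 1% O2 replicate 1 and to −0.01 without cKO 1% O2 replicate 2, in a range of −0.085 to 0.255 with a library left out. The replicate block changed no other call. Survival minus BH3-only moved from −0.22 to 0.15 (summed levels per kb) or 0.12 (without the 3 low genes) in cKO TFs across O2, from 0.04 to 0.28 or 0.32 with gesicles, from 0.15 to 0.31 without the low genes in Ctrl TFs, and for cKO against Ctrl from 0.08 to −0.23 or −0.23 in 20% O2 and from −0.29 to −0.42 without the low genes in 1% O2. Survival minus effectors for cKO against Ctrl in 1% O2 moved from −0.08 to −0.32 without the low genes. The causes were not tested.

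*Bcl2*, *Bak1* and *Bcl2l11* had as few as 23, 15 and 23 counts in the shallowest library, cKO 1% O2 replicate 1. With 3 libraries a group and adjustment over all genes, calls near the threshold turned on single libraries.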

Other observations

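In the O2 contrast averaged over 3 arms, in which 10.5% of all genes were called, 2 of 15 genes listed as p53 and its targets were called, a share near that of all genes. *Gdf15*, a stress-induced cytokine of the TGF-beta family, rose by 1.28 on the log2 scale (SE 0.268, adjusted p = 0.003 by edgeR). Its mean went from 7.39 ± 2.18 to 14.3 ± 6.26 CPM in Ctrl TFs, from 3.87 ± 2.85 to 11.9 ± 5.77 CPM in cKO TFs and from 7.97 ± 3.13 to 19.0 ± 2.60 CPM with gesicles (SD, n = 3). *Perp*, which encodes a tetraspan membrane protein of desmosomes and apoptosis, fell by 0.98 (SE 0.216, adjusted p = 0.00433). Its mean went from 10.9 ± 4.87 to 5.77 ± 1.80 CPM in Ctrl TFs, from 10.1 ± 0.565 to 5.22 ± 0.524 CPM in cKO TFs and from 11.6 ± 5.37 to 5.65 ± 1.91 CPM with gesicles. The other 13 genes of the list were not called, and the list's median of −0.08 lay beside −0.02 over all genes. Single libraries were not left out for these 2 genes.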
